A study of Mus musculus with 6 samples.

Results

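The 30 genes described here mark the oligodendrocyte lineage, and they were followed in 6 libraries of hippocampal RNA, 3 from Control and 3 from CBP-ifKO mice. They were chosen by name, as 22 genes of mature, myelinating oligodendrocytes, 3 transcription factors shared by the whole lineage and 5 genes of oligodendrocyte precursors or differentiating cells, out of the 55471 genes in the deposited table. CBP-ifKOs carried floxed Crebbp alleles, from the Crebbp f/f strain, and the CaMKIIα-creERT2 transgene. The transgene encodes a tamoxifen-inducible recombinase driven by a promoter that is active in forebrain excitatory neurons and not in oligodendrocytes. After recombination CBP-ifKOs express a truncated CBP, the histone acetyltransferase encoded by Crebbp, without acetyltransferase activity. Controls were littermates without the transgene, and both groups were C57BL/6 mice aged 3 to 6 months that had received 5 intragastric administrations of tamoxifen. A description field attached to the Control samples reads Camk2a_creERT2, which goes against this account. Esr1, whose sequence is part of the inducible recombinase, stood at 5.65 to 6.29 CPM in the Control libraries and at 63.6 to 69.4 CPM in the CBP-ifKO libraries. Each library was a pool of the hippocampi of 3 female mice, so that p-values measure the spread between pools. Values per library are listed below in the order of replicates 1, 2 and 3.

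Oligodendrocytes wrap axons of the central nervous system in myelin, a compact stack of membrane made of a few very abundant proteins and of galactolipids. They arise, also in the adult, from dividing precursors that carry the receptor Pdgfra and the proteoglycan NG2 (Cspg4), pass through a short differentiating stage, and then switch on the myelin genes under the control of Sox10, Olig2 and Myrf. In the hippocampus, myelin lies mainly in the white matter tracts along its border and precursors are spread through all layers.

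Total counts per library ran from 10199008 to 14950257. Levels are given as CPM, which are counts scaled to a common library size with TMM factors. Crebbp fell from 191.2 ± 30.1 CPM in Control to 98.4 ± 10.8 CPM in CBP-ifKO (SD, n = 3), at an edgeR adjusted p of 3.63e-05 and -0.96 on the log2 scale. The hippocampal markers Prox1, at 116.3 and 135.3 CPM in Control and CBP-ifKO, and Neurod6, at 192.0 and 175.9 CPM, were present in both groups.

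Pdgfra and Cspg4, the genes that define oligodendrocyte precursors, fell in CBP-ifKOs, while none of the genes of mature oligodendrocytes passed the test; the difference between the stages was not tested. Of the 30 members, 3 fell past an adjusted p of 0.05 over all genes tested, namely Pdgfra, Cspg4 and Gpr17, all from the 5 genes of the precursor and differentiating stages. The share called among all 17981 genes tested was 6.39% in either direction, 4.99% for lower and 1.4% for higher levels. Of the 22 mature genes, edgeR called 0 and DESeq2 called 0, where DESeq2 called 5.84% of all genes that it tested. At an unadjusted p under 0.05 there were 2 of the 22, Mbp and Opalin, against 21.2% of all genes. All 30 members passed the filter on low counts. In bulk tissue, fewer cells of a type and less RNA per cell cannot be told apart.

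By stage, the median log2 fold change (CBP-ifKO minus Control) was -0.013 for the mature genes, -0.39 for the lineage transcription factors and -0.36 for the precursor and differentiating genes, beside -0.0033 for all genes tested. Of the mature genes, 11 were above 0 and 11 below, while the 3 transcription factors and the 5 precursor and differentiating genes were all below 0, as were 50.7% of all genes. The 95% interval lay within 0.5 on the log2 scale either side of 0 for 18 of the 22 mature genes, against 57% of all genes, so that for most of them a change of that size was outside the interval. In 8 members all CBP-ifKO libraries were below all Control libraries, and in 0 members all were above, where 13.9% and 11.8% of all genes showed these patterns. These 8 were Pdgfra, Cspg4, Gpr17, Sox10, Olig2, Opalin, Gpr37 and Nkx6-2.

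**Figure D1:**
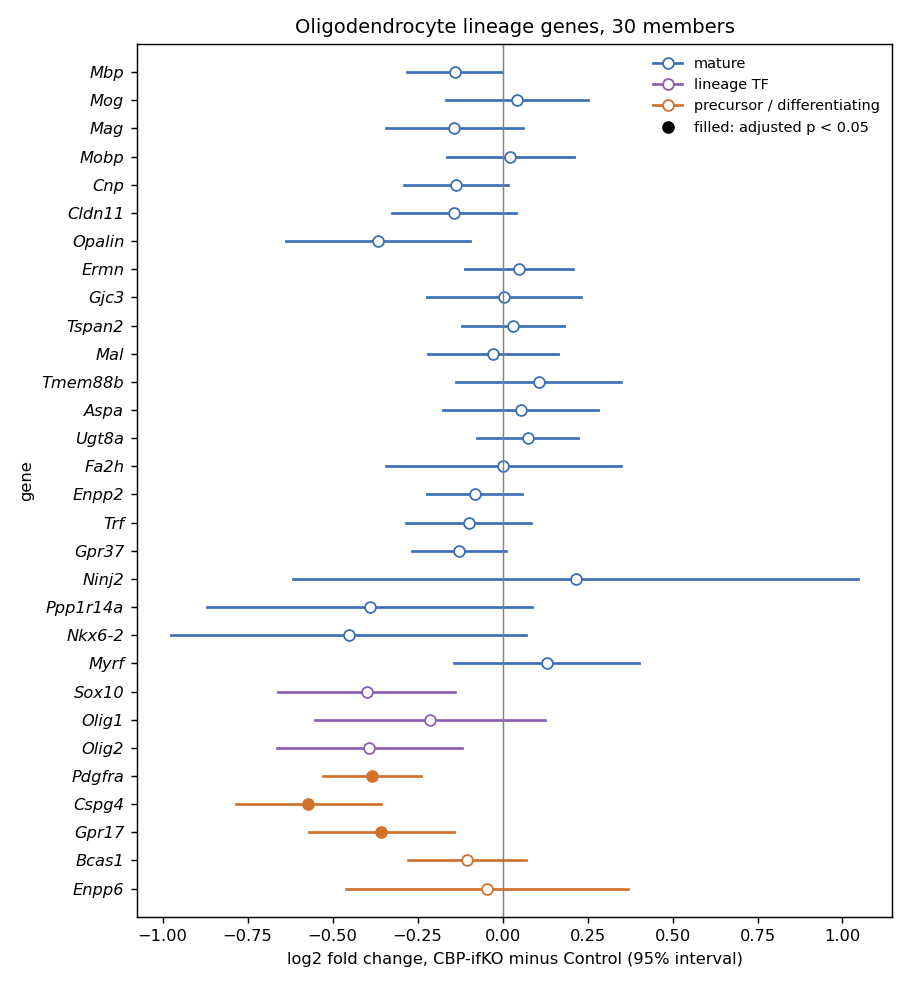
Log2 fold change (x axis, CBP-ifKO minus Control) of each of the 30 members, with its 95% interval as a line; filled points passed an adjusted p of 0.05. The filled points are Pdgfra, Cspg4 and Gpr17, whereas the 22 mature genes are spread around 0, from -0.45 for Nkx6-2 to 0.21 for Ninj2.

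Pdgfra (GRCm38 chromosome 5, 75152292 to 75198215) encodes the α receptor for platelet-derived growth factor, through which precursors are kept dividing and alive. It stood at 77.2, 76.4 and 84.4 CPM in the Control libraries and at 62.3, 61.6 and 58.3 CPM in those of the CBP-ifKOs. Its mean fell from 79.3 ± 4.43 CPM to 60.7 ± 2.11 CPM, a log2 fold change of -0.38 (SE 0.068, 95% interval -0.53 to -0.24, adjusted p 0.00263 by edgeR). The lowest Control library was well above the highest CBP-ifKO library. DESeq2 gave an adjusted p of 5.4e-04. In the annotation it shares 4.55% of its exon bases with Gm42802.

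Cspg4 (chromosome 9, 56865033 to 56899870) encodes the core protein of NG2, the surface proteoglycan after which these precursors are also named NG2 glia. The Control libraries had 24.1, 27.3 and 26.6 CPM and the CBP-ifKO libraries 17.7, 16.0 and 18.9 CPM. The 3 CBP-ifKO libraries again lay below all Control libraries. From 26.0 ± 1.67 CPM to 17.6 ± 1.45 CPM, the log2 fold change was -0.57 (SE 0.10, 95% interval -0.78 to -0.36, adjusted p 0.00251 by edgeR), or 32.7% lower, the largest size among the 30 members. DESeq2 gave an adjusted p of 0.00119. Its exons have a GC content of 59.2%, and with trends on GC content and gene length removed the log2 fold change was -0.36 (adjusted p 0.0195).

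Gpr17 (chromosome 18, 31942997 to 31949636) is a receptor that appears as precursors commit to differentiation and is lost before myelin is made. It stood at 30.1, 24.6 and 29.5 CPM in Control and at 20.6, 23.4 and 21.4 CPM in CBP-ifKO. The lowest Control library, replicate 2, was close to the highest CBP-ifKO library, also replicate 2. The log2 fold change was -0.36 (SE 0.10, 95% interval -0.57 to -0.14, adjusted p 0.0433 by edgeR). The call was not kept by DESeq2, with an adjusted p of 0.0855, nor when a library other than Control replicate 2 was left out, with adjusted p-values between 0.0763 and 0.182. It shares 3.62% of its exon bases with Lims2 on the other strand.

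Bcas1 and Enpp6 mark cells that have left the precursor stage and start to myelinate, and neither passed the test. Bcas1 had 92.9, 117.5 and 107.2 CPM in Controls and 107.2, 95.7 and 93.0 CPM in CBP-ifKOs. The ranges overlapped almost fully, with a log2 fold change of -0.11 (SE 0.082, 95% interval -0.28 to 0.068, adjusted p 0.509 by edgeR), and 11.7% of its exon bases are shared with the antisense gene Bcas1os1. Enpp6, a choline-specific phosphodiesterase of new oligodendrocytes, had 9.48, 5.58 and 6.45 CPM in Control and 5.72, 8.28 and 6.50 CPM in CBP-ifKO. The replicates of each group differed more from each other than the groups did, and the log2 fold change was -0.046 (SE 0.20, 95% interval -0.46 to 0.37, adjusted p 0.933 by edgeR).

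Pdgfra is also expressed by fibroblasts of the brain coverings and vessels, and Cspg4 by mural cells, the pericytes and smooth muscle cells of vessels. Marker lists for both cell types were therefore added after the values of the members had been seen. Of 6 fibroblast markers, 5 were tested, all 5 were below 0 and 2 were called. Of all genes tested, 50.7% were below 0 and 4.99% were called lower. The summed level of the fibroblast markers was between 72.4 and 77.4 CPM in the Control libraries. In the CBP-ifKO libraries it was between 42.6 and 52.1 CPM. Dcn, which encodes the matrix proteoglycan decorin, made up most of that sum. It fell from 57.9 ± 0.378 CPM to 35.6 ± 4.28 CPM (log2 fold change -0.69, adjusted p 1.33e-04 by edgeR). The other fibroblast markers tested stood between 2.75 CPM (Col1a1) and 6.17 CPM (Col1a2) in Control. Whether the RNA of Dcn came from fibroblasts was not tested. Col3a1, a fibrillar collagen gene, fell from 2.99 to 1.52 CPM (log2 fold change -0.98, adjusted p 0.0291 by edgeR, 0.121 by DESeq2), and the call was lost when any library but CBP-ifKO replicate 1 was left out (adjusted p 0.0567 to 0.141). The fibroblast marker Igf2 was near 0, at 0.064 and 0.13 CPM in the 2 groups. It shares 62.8% of its exon bases with Gm49394 on the same strand, so that some of its reads may have gone uncounted. Of the 8 mural cell markers 1 was called, Vtn, which encodes vitronectin and fell by 0.40 on the log2 scale (adjusted p 0.0122 by edgeR), with adjusted p-values of 0.0879 and 0.0562 when CBP-ifKO replicate 2 or 3 was left out. Their summed level ran from 219 to 239 CPM in Control and from 184 to 233 CPM in CBP-ifKO. The part of these cells in the values of Pdgfra and Cspg4 was not tested.

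The other genes of the precursor and differentiating stages, a list of 9 that are not members, were all below 0, with a median log2 fold change of -0.47. The 2 that were called were Vcan and Lhfpl3, where 4.99% of all genes were called lower. In 6 of the 9 all CBP-ifKO libraries were below all Control libraries, against 13.9% of all genes. Vcan, which encodes the matrix proteoglycan versican, fell from 54.9 ± 3.08 CPM to 44.5 ± 2.09 CPM (log2 fold change -0.30, SE 0.074, adjusted p 0.0223 by edgeR, DESeq2 adjusted p 0.0418). Lhfpl3, a tetraspan-like membrane protein gene enriched in precursors, stood at 17.6, 19.2 and 17.6 CPM in Control and at 12.5, 12.8 and 13.8 CPM in CBP-ifKO. Its groups were well apart, with a log2 fold change of -0.47 (SE 0.11, adjusted p 0.0132 by edgeR, DESeq2 adjusted p 0.0366), although 17.6% of its exon bases are shared with A930003O13Rik on the other strand. With CBP-ifKO replicate 2 left out its adjusted p was 0.0683. The call for Vcan was lost, with adjusted p-values of 0.0714 to 0.129, when replicate 1 or 3 of either group was left out, and with scaling by library totals (0.0543).

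**Figure D2:**
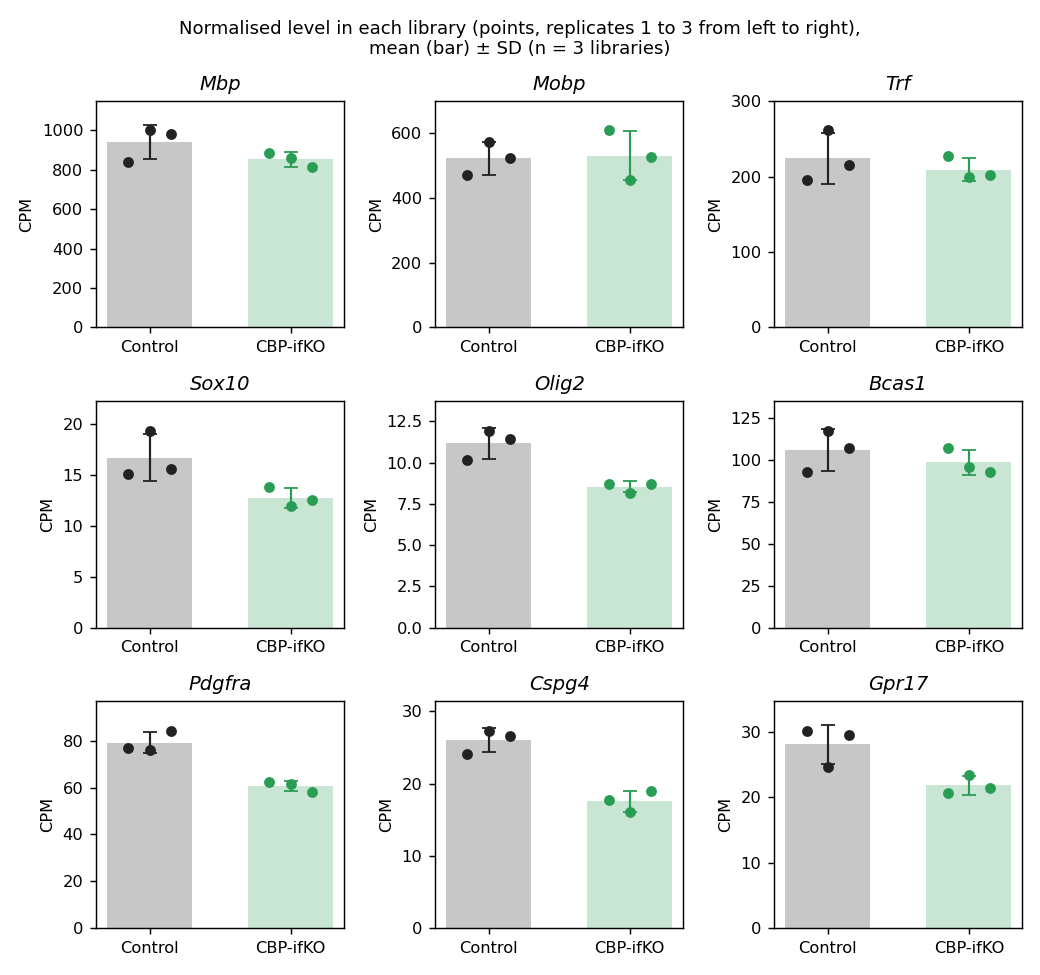
Normalised level in CPM (y axis, from 0) of 9 members in each library; points are libraries, bars are group means and error bars are the SD over 3 libraries. The CBP-ifKO points of Pdgfra, Cspg4, Gpr17, Sox10 and Olig2 lie below all Control points, while those of Mbp, Mobp, Trf and Bcas1 overlap the Control points.

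The transcription factors that define the lineage, expressed from precursors to mature cells, were lower in the mean without passing the test. EdgeR called 0 of the 3 and DESeq2 0, with 2 of the 3 at an unadjusted p under 0.05, against 21.2% of all genes. Sox10, which binds the enhancers of most myelin genes, had 15.1, 19.3 and 15.6 CPM in Control and 13.8, 11.9 and 12.5 CPM in CBP-ifKO. All CBP-ifKO libraries were below the Control libraries, and the mean of 16.7 ± 2.31 CPM compared with 12.7 ± 0.951 CPM (log2 fold change -0.40, SE 0.12, 95% interval -0.66 to -0.14, adjusted p 0.0644 by edgeR). Olig2, which specifies the lineage, had 10.1, 11.9 and 11.4 CPM in Control and 8.72, 8.15 and 8.72 CPM in CBP-ifKO. Here too the groups did not overlap (log2 fold change -0.39, SE 0.13, 95% interval -0.66 to -0.12, adjusted p 0.0828 by edgeR). Olig1, its neighbour on chromosome 16, ranged from 14.0 to 23.1 CPM in Control and from 14.3 to 19.9 CPM in CBP-ifKO, with overlapping groups (log2 fold change -0.21, 95% interval -0.55 to 0.12, adjusted p 0.486 by edgeR).

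The 3 factors have GC-rich exons, between 58.5% and 61.8%. With trends on GC content and gene length removed, the log2 fold changes were -0.16 for Sox10, -0.24 for Olig2 and 0.0040 for Olig1. Without Control replicate 2, the highest library for all 3, Sox10 was at -0.27. Of 8 other transcription factors of the lineage, 1 was called, where 4.99% of all genes were called lower. Sox8, a close relative of Sox10, fell from 32.4 ± 2.35 CPM to 25.5 ± 1.30 CPM (log2 fold change -0.34, SE 0.089, adjusted p 0.0290 by edgeR), whereas DESeq2 gave an adjusted p of 0.0653, the call held in 8 of 15 alternatives, and 10.6% of its exon bases are shared with an antisense gene.

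Of the structural genes of myelin, the most abundant were not called in either direction. Per kilobase of exon, the scale on which genes can be compared, Mbp was highest at 111.0 ± 10.24 CPM per kb in Control and 100.7 ± 4.39 in CBP-ifKO, followed by Mobp at 76.2 ± 7.32 and 77.5 ± 11.1 and by Trf at 67.6 ± 10.21 and 63.1 ± 4.64. On the same scale Pdgfra had 7.91 ± 0.442 and 6.06 ± 0.211 and Cspg4 2.18 ± 0.140 and 1.47 ± 0.122 CPM per kb. The summed level of the 22 mature genes was between 2501 and 2982 CPM in Control and between 2533 and 2805 CPM in CBP-ifKO, so that the groups overlapped.

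Mbp (chromosome 18, 82475146 to 82585637) encodes myelin basic protein, which holds the inner faces of the membrane together. Its level was 841, 999 and 981 CPM in Controls and 886, 859 and 813 CPM in CBP-ifKOs. Control replicate 1 lay inside the CBP-ifKO range, and the log2 fold change of -0.14 (SE 0.066, 95% interval -0.28 to -0.0012) did not pass the threshold (adjusted p 0.231 by edgeR). Mobp, a small basic protein of compact myelin (chromosome 9, 120149707 to 120181484), had 471, 571 and 523 CPM in Control and 608, 456 and 527 CPM in CBP-ifKO. The CBP-ifKO libraries spanned the whole Control range, and the log2 fold change was 0.023 (SE 0.088, 95% interval -0.16 to 0.21, adjusted p 0.923 by edgeR). Trf, the iron carrier transferrin made by oligodendrocytes (chromosome 9, 103204001 to 103230444), had 195, 262 and 216 CPM in Control and 227, 199 and 202 CPM in CBP-ifKO. It overlapped as well, at -0.10 (SE 0.086, 95% interval -0.28 to 0.083, adjusted p 0.562 by edgeR), and as 63.5% of its exon bases are shared with Gm20425 on the same strand, reads of the 2 genes may have been split.

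The remaining proteins of the myelin sheath fell in a narrow band. Mog, of the outer surface of myelin, had a log2 fold change of 0.043, Mag, an adhesion protein facing the axon, of -0.14, Cnp, an enzyme of uncompacted myelin, of -0.14, and Cldn11, which forms the tight junctions of the sheath, of -0.14. The cytoskeletal protein Ermn was at 0.048, the connexin Gjc3 at 0.0038, the tetraspanin Tspan2 at 0.030, the raft protein Mal at -0.028 and the membrane protein Tmem88b at 0.11. Their adjusted p-values lay between 0.299 and 0.990 (edgeR). Opalin, a membrane protein characteristic of oligodendrocytes, stood out from these, with 13.0, 15.4 and 15.3 CPM in Control and 11.9, 12.3 and 9.63 CPM in CBP-ifKO. Its libraries did not overlap between groups, and it missed the threshold at a log2 fold change of -0.37 (SE 0.13, 95% interval -0.64 to -0.096, adjusted p 0.103 by edgeR).

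Enzymes that serve the lipids and the metabolism of the sheath showed no detectable change either. Ugt8a, which makes galactosylceramide, was at a log2 fold change of 0.074, Fa2h, which hydroxylates its fatty acids, at 0.0027, Aspa, which releases acetate from N-acetylaspartate, at 0.053, and Enpp2, the lysophospholipase D autotaxin, at -0.081. All 4 intervals lay within 0.5 either side of 0, and the smallest of the 4 adjusted p-values was 0.530. Of 4 further genes of myelin sphingolipid synthesis, edgeR and DESeq2 called 0, with 1 at an unadjusted p under 0.05, against 21.2% of all genes.

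The other mature genes were a receptor, a pair of transcription factors and genes at low counts. Gpr37 is a receptor of mature oligodendrocytes. Gpr37 had 67.1, 64.2 and 65.6 CPM in Control and 62.0, 58.7 and 59.4 CPM in CBP-ifKO, a small difference without overlap (log2 fold change -0.13, SE 0.066, adjusted p 0.273 by edgeR). Myrf, the membrane-bound factor that switches on the myelin genes, was at 0.13 (95% interval -0.14 to 0.40), and Nkx6-2, a homeodomain factor of maturing cells with 17 to 37 counts per library, at -0.45 (95% interval -0.97 to 0.069). Ppp1r14a, an inhibitor of myosin phosphatase, was at -0.39 with an interval from -0.87 to 0.087. Ninj2, an adhesion protein gene with 4 to 13 counts per library, was at 0.21 with an interval from -0.62 to 1.05, the widest of the 30. With trends on GC content and gene length removed, Nkx6-2 was at -0.15 and Ppp1r14a at -0.15, and their exons have a GC content of 64.3% and 61.7%.

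A list of 26 other mature oligodendrocyte genes was counted beside the mature members. Of the 25 tested 1 was called, where 4.99% of all genes were called lower, and the median log2 fold change was -0.055. The gene called was Cdk18, a kinase gene that fell from 10.6 ± 1.05 CPM to 7.45 ± 0.524 CPM (log2 fold change -0.51, SE 0.14, adjusted p 0.0348 by edgeR, DESeq2 adjusted p 0.113), a call kept in 6 of 15 alternatives.

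**Figure D3:**
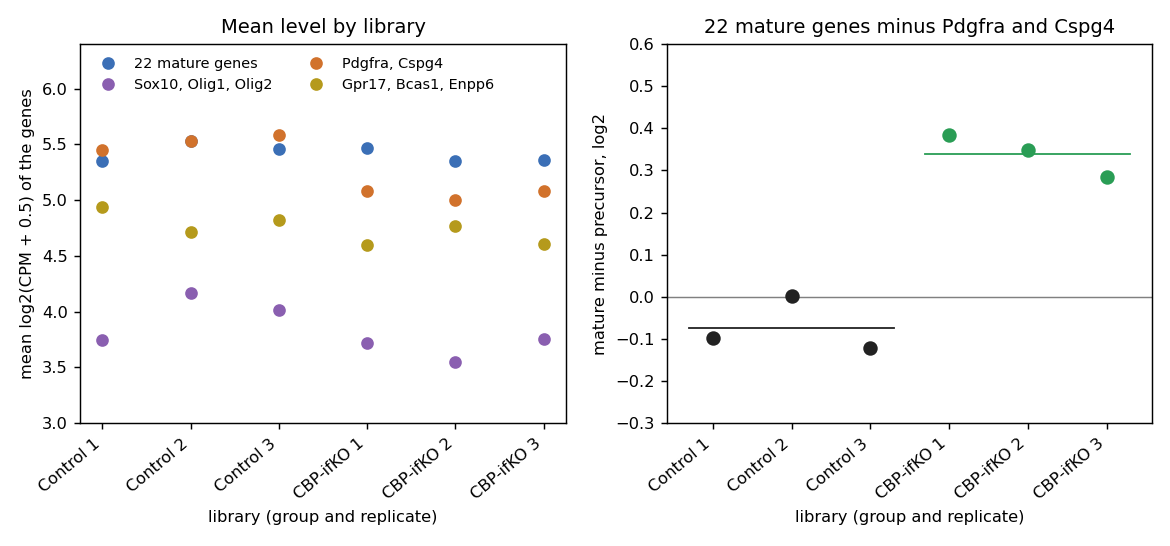
Left, mean log2(CPM + 0.5) of 4 groups of members in each library (y axis); right, the mean of the 22 mature genes minus that of Pdgfra and Cspg4, with horizontal lines for the group means. The points of the mature genes and of Pdgfra and Cspg4 coincide in Control replicate 2. In the right panel the Control libraries lie between -0.12 and 0.00075 and the CBP-ifKO libraries between 0.28 and 0.38.

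Mature and precursor genes were set against each other within each library, as the mean log2(CPM + 0.5) of the 22 mature genes minus that of Pdgfra and Cspg4. This difference of levels was -0.098, 0.00075 and -0.12 in the Control libraries and 0.38, 0.35 and 0.28 in the CBP-ifKO libraries. The group means were -0.073 ± 0.065 and 0.34 ± 0.050 (SD, n = 3), apart by 0.41. As both precursor genes had been called lower, the direction was set by the choice of genes and was given no test. Against all 5 precursor and differentiating genes, the libraries overlapped, with 0.21, 0.49 and 0.34 in Control and 0.67, 0.49 and 0.57 in CBP-ifKO. The medians of the log2 fold changes differed by 0.34 between the stages, by 0.21 when Control replicate 1 was left out, and by 0.22 when CBP-ifKO replicate 1 was left out. Control replicate 2 was the highest of the 6 libraries for 14 of the 30 members and for 9 of the 22 mature genes.

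Promoter sequences are shown for the 2 precursor genes that fell and for 2 myelin genes that were not called, as the earliest and the latest stage of the lineage. They were taken from RefSeq (GRCm38.p6), which had an entry for 21 of the 30 members; those without one were Mbp, Fa2h, Enpp2, Trf, Gpr17, Myrf, Sox10, Olig1 and Bcas1. Each is printed 5′ to 3′ on the + strand, upstream of the transcribed part, with capitals marking the SOX motif ACAAAG or ACAATG on either strand. They lie at chr5:75152001-75152250 (Pdgfra), chr9:56864854-56865032 (Cspg4), chr9:120149492-120149706 (Mobp) and chr11:100574689-100574903 (Cnp).
Pdgfra: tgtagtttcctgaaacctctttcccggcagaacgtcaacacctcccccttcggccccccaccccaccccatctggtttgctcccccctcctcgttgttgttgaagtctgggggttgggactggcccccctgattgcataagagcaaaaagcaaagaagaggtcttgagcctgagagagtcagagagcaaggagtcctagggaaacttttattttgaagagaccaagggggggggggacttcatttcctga
Cspg4: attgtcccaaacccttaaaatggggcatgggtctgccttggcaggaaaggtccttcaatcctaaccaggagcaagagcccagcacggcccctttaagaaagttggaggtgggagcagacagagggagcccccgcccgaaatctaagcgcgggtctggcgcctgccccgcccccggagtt
Mobp: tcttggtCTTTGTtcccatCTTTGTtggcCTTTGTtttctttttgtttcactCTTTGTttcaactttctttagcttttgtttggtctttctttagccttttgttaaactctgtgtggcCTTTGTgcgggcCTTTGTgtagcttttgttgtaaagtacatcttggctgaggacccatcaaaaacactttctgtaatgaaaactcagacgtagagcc
Cnp: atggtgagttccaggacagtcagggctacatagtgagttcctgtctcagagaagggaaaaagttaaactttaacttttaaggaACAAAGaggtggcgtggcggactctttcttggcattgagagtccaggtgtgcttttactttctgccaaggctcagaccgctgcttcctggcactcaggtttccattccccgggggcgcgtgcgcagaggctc
The printed stretch of Mobp holds 6 matches and that of Cnp 1, and those of Pdgfra and Cspg4 hold 0. These 4 do not stand for their stages. Upstream of the mature genes Mog, Cldn11, Gjc3, Mal, Aspa, Ugt8a, Gpr37, Ninj2, Ppp1r14a and Nkx6-2 there were also 0 matches. Enpp6, of the precursor and differentiating stage, had 1, and so had Olig2. In the 250 bases upstream of the start, 9 of the 21 members had the SOX motif in at least 1 of their promoters (Mag has 3 and Tspan2 has 2), against 25.2% of 32851 mouse promoters. The CRE half-site TGACG, the letters bound by CREB, the partner of CBP, was found in 1 of the 21, Pdgfra, against 17.8% of all promoters, and the E-box CANNTG, the letters bound by Olig factors, in 13 of the 21 against 66.2%. Both strands were searched, and matches of different motifs may share bases. These are matches of letters and not measured sites.

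Signals that reach the lineage from neurons and its receptors were examined from lists of genes that are not members. Of 6 ligands 1 was called, Nrg1, which encodes neuregulin 1 and fell from 12.7 ± 1.37 CPM to 9.14 ± 1.09 CPM (log2 fold change -0.48, SE 0.13, adjusted p 0.0427 by edgeR, DESeq2 adjusted p 0.116), a call kept in 8 of 15 alternatives. Of 6 receptors and receptor partners 2 were called, and all 6 were below 0. Over all genes tested, 4.99% were called lower and 50.7% were below 0. Lingo1, an inhibitor of differentiation that neurons express too, fell from 93.3 ± 14.0 CPM to 66.7 ± 9.52 CPM (log2 fold change -0.49, SE 0.11, adjusted p 0.00961 by edgeR). Fgfr1, a fibroblast growth factor receptor of many brain cells, fell from 74.9 ± 2.83 CPM to 59.8 ± 7.12 CPM (log2 fold change -0.33, SE 0.082, adjusted p 0.0235 by edgeR). Fgfr1 was called in 10 of 15 alternatives. With trends on GC content and gene length removed it was at -0.21 (adjusted p 0.0826), and its adjusted p was between 0.0595 and 0.139 with replicate 1 or 3 of Control or 2 or 3 of CBP-ifKO left out. Lingo1 was called in 12 of 15, with adjusted p-values of 0.0558 to 0.0861 without Control replicate 3 or either of CBP-ifKO replicates 2 and 3. The groups of Lingo1 nearly touched, with 77.6 CPM in the lowest Control library and 76.6 CPM in the highest CBP-ifKO library. Of 10 axonal proteins of nodes and paranodes, where myelin meets the axon, edgeR and DESeq2 called 0. Their median log2 fold change was -0.13, with 2 at an unadjusted p under 0.05 against 21.2% of all genes.

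**Figure D4:**
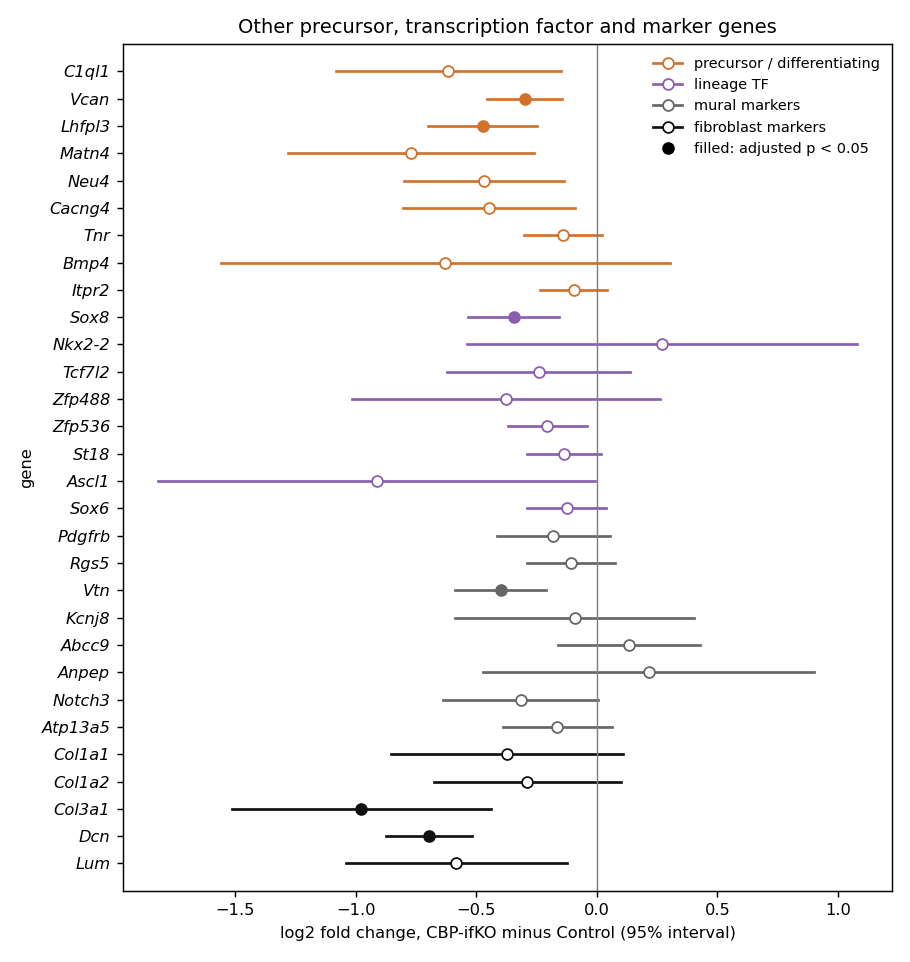
Log2 fold change (x axis, CBP-ifKO minus Control) with its 95% interval for genes that are not members, in 4 lists; filled points passed an adjusted p of 0.05. All 9 precursor and differentiating genes are below 0, and the filled points are Vcan, Lhfpl3, Sox8, Vtn, Col3a1 and Dcn.

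Markers of the other cells of the tissue were counted beside these results. Over all genes tested, edgeR called 6.39% in either direction, and 21.2% had an unadjusted p under 0.05. EdgeR called 0 of 10 astrocyte markers, 0 of 10 microglia markers and 0 of 8 endothelial markers, DESeq2 likewise 0, with 1, 3 and 1 at an unadjusted p under 0.05. Their median log2 fold changes were -0.083, -0.066 and -0.13. Of 8 excitatory neuron markers 1 was called, Nrgn, a calmodulin-binding protein gene of dendrites at -0.73. At an unadjusted p under 0.05 there were 5 of the 8, among them Neurod2 at 0.20 and Prox1 at 0.22. The median of the 8 was -0.024, with 5 below 0 and 3 above. Of 8 interneuron markers 2 were called, the neuropeptide gene Sst at -0.51 and the vesicular transporter gene Slc32a1 at -0.38. The interneuron median was -0.13, with 2 at an unadjusted p under 0.05. Slc32a1 was called in 5 of 15 alternatives, with an adjusted p of 0.116 by DESeq2 and a log2 fold change of -0.15 with trends on GC content and gene length removed. Of 5 genes tested from a list of thalamus markers 1 was called, Calb2 at -0.49, which kept its call in 9 of 15 alternatives. Its adjusted p-values reached 0.215 by edgeR (without Control replicate 3). The other 4 were not called, and Slc17a6 was at 0.19, the 1 of the 5 above 0. Whether the RNA of Calb2 came from thalamus was not tested. EdgeR and DESeq2 called 0 of 4 choroid plexus markers tested, with 1 at an unadjusted p under 0.05. Schwann cells, which make the myelin of nerves outside the brain, had a summed marker level of 3.47 to 4.56 CPM in the Control libraries. In the CBP-ifKO libraries it was 2.88 to 4.65 CPM, and Pmp2 was at 0 in both groups. As 86.9% of the exon bases of Pmp2 are shared with Gm37389 on the same strand, its reads may have gone uncounted. Of the 2 Schwann cell markers tested, 0 were called by edgeR or DESeq2, with 0 at an unadjusted p under 0.05.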

How the data were processed

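Hippocampal RNA from 3 Control and 3 CBP-ifKO samples was analysed, grouped by the sample titles. Sex and pooling were described in the study's methods. The authors trimmed the 50-base single-end reads with Trim Galore (0.6.4), aligned them with STAR (2.6.1) to GRCm38, kept reads of good mapping quality and counted them over Ensembl exons with Rsubread. The deposited values are raw counts per gene. Whether counting used the strand was not stated, so overlapping genes are named for some of the genes. Others share exon bases too, among them Slc32a1 (24.9% with Gm14205) and Nkx6-2 (12.9% with Inpp5a), both on the other strand. Symbols, coordinates, exon length and GC content came from a GENCODE annotation of the same build, which held 99.57% of the identifiers.

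EdgeR (4.0.16, R 4.3.3) was fitted to all genes, with TMM scaling, filterByExpr (minimum count 10, minimum total 15), the quasi-likelihood F-test and Benjamini-Hochberg adjustment over 17981 genes, with a threshold of 0.05. The standard error is the log2 fold change divided by the square root of F. DESeq2 (1.42.0), which the study used, was an alternative, beside other scalings and filters, offsets for GC content and length (natural splines, 5 degrees of freedom), the replicate number as a block and each library left out. The fit was tested on simulated data. Levels are CPM with TMM factors, given as the mean ± SD of 3 libraries. The common biological coefficient of variation that edgeR estimated over all genes, which leaves out counting noise, was 6.81%. All 30 members are named. Of the other lists, the genes called are named, and Neurod2, Neurod6, Prox1, Igf2 and Pmp2 were added after their values were seen. Some genes of these lists are not reported here. The members and lists were chosen with earlier results of these data known.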

Additional observations from a re-analysis of the deposited data

How the results depend on the processing

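Of 15 alternatives, Pdgfra and Cspg4 were called in 15 each, at log2 fold changes of -0.40 to -0.34 and -0.62 to -0.36, and Gpr17 in 4. The number of genes called was 1149, 1854 with the replicate block and the GC and length offsets together, and 498 to 1326 with a library left out, the lowest without CBP-ifKO replicate 2 (498), CBP-ifKO replicate 3 (526) and Control replicate 3 (546). With the block and offsets 1 mature gene was called lower, Opalin (adjusted p 0.0312), and 1 higher, Myrf (0.0357). With no filter on low counts 1 lineage factor was called, Sox10 (0.0442). The median of the lineage factors was -0.16 with the offsets, with or without the block. The median of the precursor and differentiating genes was -0.29 with the offsets and -0.29 with both, and -0.40 to -0.30 with a library left out. That of the mature genes was then -0.10 to 0.031, lowest without CBP-ifKO replicate 1 or Control replicate 1 (-0.091), and the difference of the medians 0.21 to 0.43. The cause of these shifts was not tested.

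The direction turned for 14 of the 30 members, all uncalled: 12 mature genes, Olig1 and Enpp6. With the GC and length offsets Mag was at 0.0059, Ermn at -0.019, Gjc3 at -0.036, Tspan2 at -0.013 and Olig1 at 0.0040. With the offsets and the block they were at 0.0059, -0.019, -0.041, -0.014 and 0.00040, and Aspa at -0.0018. With the block alone Gjc3 was at -0.0011, and with library totals Mal was at 0.018. With a library left out the ranges were -0.034 to 0.16 for Aspa, -0.22 to 0.21 for Enpp6, -0.12 to 0.15 for Fa2h, -0.088 to 0.14 for Gjc3, -0.11 to 0.093 for Mal, -0.086 to 0.13 for Mobp, -0.050 to 0.11 for Mog, -0.079 to 0.47 for Ninj2, -0.046 to 0.21 for Tmem88b, -0.19 to 0.035 for Trf and -0.012 to 0.10 for Tspan2. DESeq2 gave Ninj2 no adjusted p.

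Deviations from the group means hardly correlated between samples of the same number (0.0769, 0.0369 and 0.00216), and the labels give the numbers no meaning, so they were not taken as pairs. With the replicate block alone 1210 genes were called and 2 members, Gpr17 being lost (adjusted p 0.0556). With library totals alone the median of all genes was 0.043, and 667 of the calls were lower and 514 higher, against 897 and 252. With 3 pools per group, the interval lay within 0.5 on the log2 scale either side of 0 for 20 of the 30 members. Among the mature genes, those of Opalin and of the weakly expressed Ninj2, Nkx6-2 and Ppp1r14a reached past it.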
